A study of Homo sapiens with 6 samples.

Results

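The E2F and DP transcription factors were followed in MCF10DCIS.com cells, a human breast cell line of the MCF10A lineage that grows as ductal carcinoma in situ-like lesions in mice. The members were taken by symbol from the gene count table: the E2F genes E2F1 to E2F8 and the DP genes TFDP1 and TFDP2, which are 10 of the 26334 genes listed. The 3 shLuc control libraries came from cells carrying pRSI-U6-shLuc-UbiC-TagRFP-2A-Puro, whose hairpin is aimed at luciferase, and the 3 shWDR5 libraries from cells carrying pRSI-U6-shWDR5-UbiC-TagRFP-2A-Puro. All 6 cultures were selected with puromycin and carried TagRFP, and all were grown in the same horse serum medium. The study's methods describe pooled WDR5 hairpins for the cells that were injected into mice and do not say whether the sequenced cells received the pool, and the time between infection and lysis is not given in the sources used here. A single cell line was used, and nothing in the labels says whether the replicates were separate infections, so the p-values measure the spread between these libraries, which may be technical. Poly-A RNA was sequenced to between 38218108 and 57640167 counted reads per library.

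WDR5, the core subunit of the MLL/SET1 histone H3 lysine 4 methyltransferases and the gene aimed at by the hairpins, was lower in all 3 silenced libraries. Its level was 52.6, 48.5 and 51.3 CPM (read counts scaled to library size, with TMM factors between libraries) in shLuc and 23.4, 24.4 and 20.8 CPM in shWDR5, a fall to 45.0% of control (log2 fold change -1.15 ± 0.07 SE, adjusted p = 1.86e-07 by edgeR's quasi-likelihood test). Among 8 basal-like epithelial markers, KRT5, KRT6A, KRT14, KRT17 and TP63 rose, CDH1 and EPCAM fell and ITGA6 did not pass. The keratin gene KRT5 went from 356 to 671 RPKM (CPM per kilobase of exon) and KRT17 from 1372 to 2624 RPKM, while the E-cadherin gene CDH1 went from 103 to 50.3 RPKM and EPCAM from 165 to 131 RPKM. The estrogen receptor gene ESR1 stood at 0.528 and 0.493 RPKM, and PGR had at most 0.00203 RPKM in either mean. Of the leukocyte markers, CD3E had no count and PTPRC means were 0.00202 and 0.0139 RPKM, but CD68 was detected at 6.39 RPKM in shLuc and 5.97 RPKM in shWDR5. The fibroblast genes COL3A1 and DCN and the endothelial gene VWF were at or near 0, PDGFRB and CDH5 were below 0.3 RPKM, and COL1A1 (3.72 and 2.63 RPKM) and PECAM1 (1.46 and 0.891 RPKM) were detected and fell. The part of any of these markers in the results was not tested.

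E2F proteins bind DNA as partners of DP proteins and set the timing of genes needed for DNA synthesis and mitosis. E2F1, E2F2 and E2F3 are known as activators that are held in check by the retinoblastoma protein until cyclin-dependent kinases phosphorylate it. E2F4 and E2F5 act mainly as repressors together with the pocket proteins p107 and p130, E2F6 represses through Polycomb complexes without a pocket protein, and the atypical E2F7 and E2F8 repress without either a pocket protein or a DP partner. WDR5 is of interest here because HCF-1, which sits with MLL/SET1 complexes, can be recruited to promoters by E2F proteins, and because WDR5 itself is found in the Polycomb complex PRC1.6 that holds E2F6.

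The E2F site is a short element that E2F genes themselves can carry in their promoters. RefSeq promoter sequence was available for 8 of the 10 members, and not for E2F5 or E2F8. The stretches just before the RefSeq transcription start are shown for the activators E2F1, E2F2 and E2F3 and the repressors E2F4 and E2F7. They run from position -120 to -1 before the start, but end at -13 for E2F1 and at -12 for E2F7. In the GENCODE annotation, exons of the same gene cover 19 of the 250 bases before the E2F1 start and 11 before that of E2F7. Such bases were left out unless a match reached into them. The second E2F1 match, at -20 to -13, may thus lie partly in an exon. After silencing E2F1 and E2F2 fell, while E2F3, E2F4 and E2F7 rose. E2F1 (chr20:33686398-33686505, minus strand), E2F2 (chr1:23531234-23531353, minus strand), E2F3 (chr6:20401759-20401878, plus strand), E2F4 (chr16:67192035-67192154, plus strand) and E2F7 (chr12:77065581-77065689, minus strand) are given 5′ to 3′ on the gene's own strand, on GRCh38. Capitals mark every match, on either strand, to the E2F site letters TTTCCCGC, TTTCGCGC, TTTGCCGC or TTTGGCGC.
E2F1: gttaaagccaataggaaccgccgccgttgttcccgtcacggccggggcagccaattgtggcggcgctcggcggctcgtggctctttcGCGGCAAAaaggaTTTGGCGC
E2F2: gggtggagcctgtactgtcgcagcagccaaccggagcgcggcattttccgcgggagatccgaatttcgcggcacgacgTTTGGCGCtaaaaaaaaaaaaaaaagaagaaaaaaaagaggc
E2F3: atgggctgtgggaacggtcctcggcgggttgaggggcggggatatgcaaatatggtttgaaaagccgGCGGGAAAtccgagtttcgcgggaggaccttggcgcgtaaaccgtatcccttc
E2F4: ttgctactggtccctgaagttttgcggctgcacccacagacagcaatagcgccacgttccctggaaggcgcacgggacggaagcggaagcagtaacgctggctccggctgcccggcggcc
E2F7: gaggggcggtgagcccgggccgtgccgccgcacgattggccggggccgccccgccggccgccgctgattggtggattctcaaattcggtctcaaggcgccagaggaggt

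Within the 250 bases before the start, E2F1 held 2 matches, E2F2 held 1 and the upstream start of E2F3 held 1, while its downstream start held none. TFDP1 also held 1 match. E2F4, E2F6, E2F7 and the 3 starts of TFDP2 held none of these letters. A match was found in 2.77% of the 34943 RefSeq promoter windows of the same length. At the level of genes, 4 of the 8 members with a window had a match, against 5.25% of the 11381 tested genes with a window. A match describes the letters only and says nothing about binding in these cells.

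All 10 members passed the low-count filter. After WDR5 silencing 5 of them rose and 4 fell at an adjusted p under 0.05 (edgeR's quasi-likelihood test with Benjamini-Hochberg adjustment over 16117 genes), and TFDP1 did not pass. That test called 56.5% of all genes tested, 26.6% of them as higher and 29.9% as lower, so a call by itself sets no member apart. In CPM the groups did not overlap for 9 members, 5 above and 4 below control, as was the case for 62.3% of all genes tested (29.9% above and 32.4% below). The members' median log2 fold change was 0.10, beside -0.01 over all genes tested. The study's stricter rule also asks for an absolute log2 fold change of at least 0.6 and an expression above 0.5 RPKM. The paper's figure legend states this rule for its patient-derived xenografts, and it was applied here to the cell line. Expression was taken as the mean over all 6 libraries. Under this rule E2F7 was called higher and E2F2 and E2F8 lower. The E2F8 mean was above 0.5 RPKM in shLuc (1.58 RPKM) and below it in shWDR5 (0.448 RPKM). E2F8 would thus not be called if both group means had to exceed that limit. That rule called 17.1% of all genes tested, 7.09% as higher and 10.0% as lower.

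In these bulk libraries fewer cells in a cycle phase and less mRNA per cell cannot be told apart, which bears on the cell cycle-regulated members E2F1, E2F2, E2F7 and E2F8 and on the target lists.

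**Figure D1:**
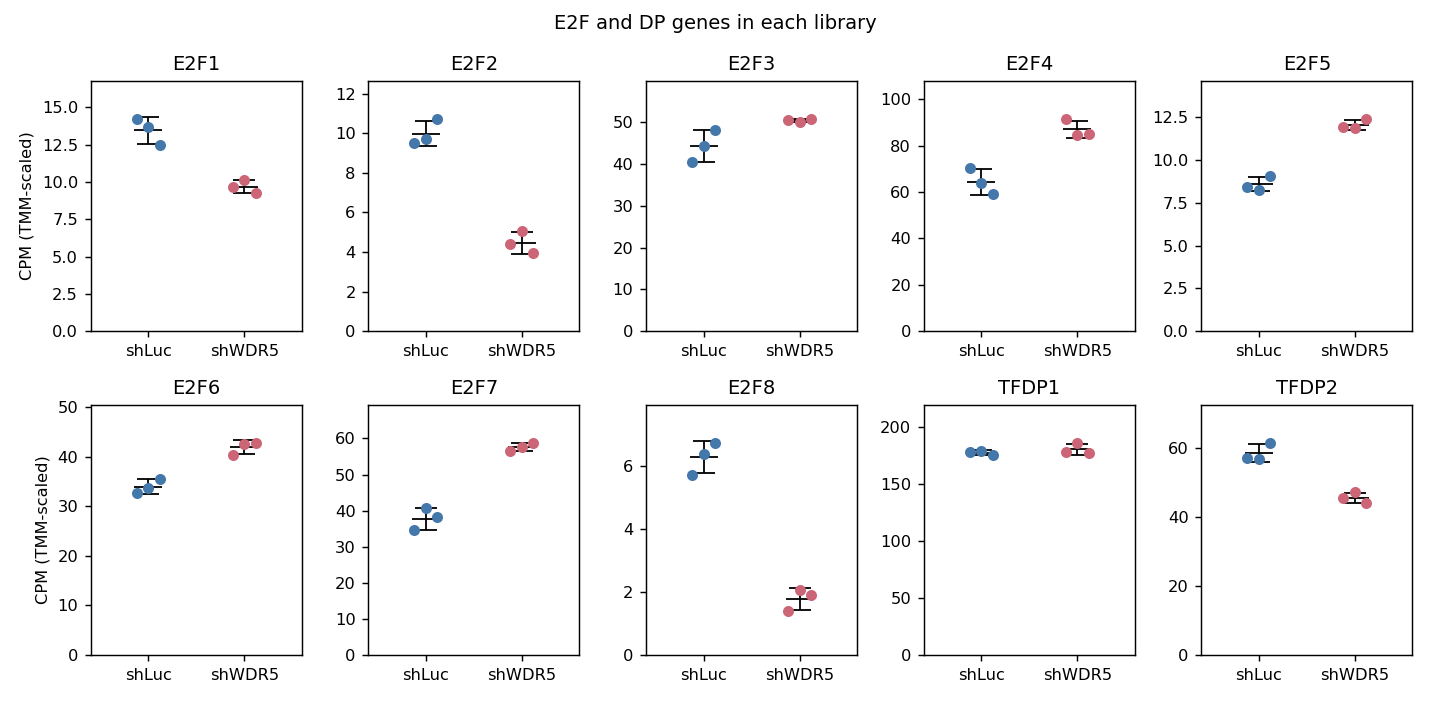
Level of each of the 10 genes in TMM-scaled CPM (y axis, linear and starting at 0) in the 3 shLuc and 3 shWDR5 libraries (points), with the mean and SD as black bars. E2F1, E2F2, E2F8 and TFDP2 lay lower in every shWDR5 library, E2F3 to E2F7 lay higher, and only the TFDP1 points overlapped between the groups.

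Among the activators, E2F2 fell most. Its level was 9.51, 9.72 and 10.7 CPM in shLuc and 4.38, 5.07 and 3.97 CPM in shWDR5. Every silenced library lay below every control, and the log2 fold change was -1.15 ± 0.10 (SE, n = 3 libraries per group; edgeR adjusted p = 2.41e-06), a level of 45.1% of control. A non-coding gene on the other strand, LOC101928163, shares 56 of the 5193 exon bases of E2F2 and had at most 28 counts in any library.

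E2F1, the founding member of the family, fell less. It measured 14.2, 13.7 and 12.5 CPM in shLuc against 9.67, 10.1 and 9.29 CPM in shWDR5. The groups did not overlap, and the log2 fold change was -0.47 ± 0.08 (edgeR adjusted p = 0.000328).

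E2F3, the third activator, did not follow E2F1 and E2F2. The shLuc libraries gave 40.6, 44.5 and 48.3 CPM and the shWDR5 libraries 50.5, 50.2 and 50.8 CPM. The silenced libraries were tightly grouped just above the highest control, and the log2 fold change was 0.18 ± 0.07 (edgeR adjusted p = 0.0386). This call was lost when any 1 library other than shLuc replicate 3 was left out (log2 fold change 0.14 without shLuc replicate 1, 0.18 without shLuc replicate 2, 0.18, 0.19 and 0.18 without shWDR5 replicate 1, 2 and 3, with adjusted p from 0.0690 to 0.107), and also with total-count scaling (0.13, adjusted p = 0.144), so that 4 members then counted as higher. E2F3 gives rise to the E2F3a and E2F3b proteins from separate starts, and the gene-level count adds both together.

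The pocket-protein-bound repressors both rose. E2F4, which carries much of the repression in resting cells, stood at 70.3, 63.8 and 59.3 CPM in shLuc and 91.4, 84.6 and 85.0 CPM in shWDR5. All silenced libraries exceeded all controls, with a log2 fold change of 0.43 ± 0.07 (edgeR adjusted p = 0.00024). E2F5 was at 8.44, 8.28 and 9.05 CPM in shLuc and at 11.9, 11.9 and 12.4 CPM in shWDR5.

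For E2F5 the groups were again apart, and the log2 fold change was 0.49 ± 0.08 (edgeR adjusted p = 0.000179). The opposite-strand gene C8orf59 shares 25.1% of the exon bases of E2F5, and how the counting treated strand is not stated. C8orf59 itself ran from 1094 to 1616 counts and did not pass the test (95% interval of its log2 fold change -0.29 to 0.09), and its part in the E2F5 value was not tested.

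E2F6, the Polycomb-linked repressor, rose by a smaller amount. The controls gave 32.7, 33.7 and 35.6 CPM and the silenced libraries 40.4, 42.7 and 42.8 CPM, without overlap. Its log2 fold change was 0.30 ± 0.06 (edgeR adjusted p = 0.00139). RefSeq lists 4 pseudogenes named after E2F6, and also 3 after TFDP1, 2 after E2F3 and 1 after E2F4. Reads that fit a pseudogene equally well would leave some uncertainty in these genes' counts.

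The atypical repressors moved in opposite directions. E2F7 rose from 34.6, 40.6 and 38.1 CPM to 56.4, 57.8 and 58.8 CPM, a log2 fold change of 0.61 ± 0.07 (edgeR adjusted p = 1.34e-05). E2F8 dropped from 5.71, 6.37 and 6.72 CPM to 1.38, 2.06 and 1.90 CPM, to 28.7% of control. These low CPM values of E2F8 still rested on 247 to 282 counts in each shLuc library and 64 to 117 in each shWDR5 library.

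E2F8 had the lowest adjusted p of the family (log2 fold change -1.80 ± 0.14, edgeR adjusted p = 7.28e-07). The ratio of E2F7 to E2F8 per exon length was 3.92 to 4.41 in the shLuc libraries and 19.4 to 28.2 in the shWDR5 libraries. E2F7 and E2F8 are usually described as acting together on the same promoters, and in these cells E2F7 was the more abundant of the pair in every library. The E2F7 call under the study's rule sat at its edge: the log2 fold change of 0.61 exceeded the limit of 0.6 but fell below it with total-count scaling (0.55) and without shLuc replicate 1 or shWDR5 replicate 3.

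The DP partners, which most E2F proteins need to bind DNA, behaved unlike each other. TFDP1 measured 178, 179 and 175 CPM in shLuc and 178, 186 and 177 CPM in shWDR5. These libraries overlapped, and the 95% interval of the log2 fold change ran from -0.09 to 0.13 (edgeR adjusted p = 0.727), with the sign turning under total-count scaling. TFDP2 fell from 57.0, 56.8 and 61.4 CPM to 45.4, 47.1 and 44.1 CPM.

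The TFDP2 groups did not overlap, and its log2 fold change was -0.36 ± 0.06 (edgeR adjusted p = 0.000316). TFDP3, a retrogene of the same family that is not among the members, had at most 4 counts in any library.

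**Figure D2:**
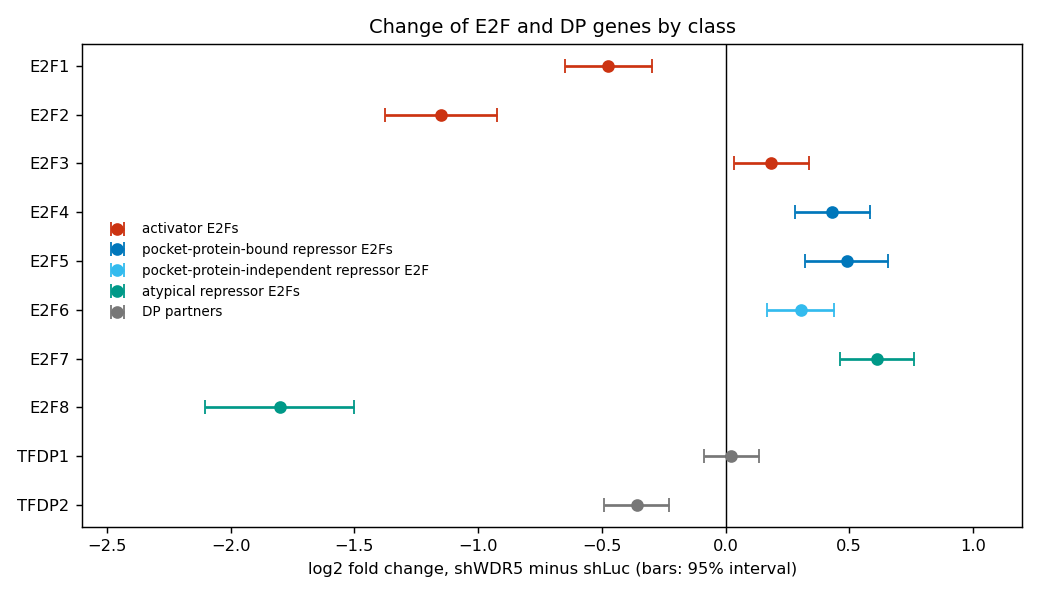
Log2 fold change of each gene (shWDR5 minus shLuc, x axis) with its 95% interval from the edgeR fit, coloured by class. The repressors E2F4, E2F5, E2F6 and E2F7 lay to the right of 0, the activators E2F1 and E2F2 and the repressor E2F8 to the left, and the TFDP1 interval crossed 0.

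Set against each other by class, the activators counted 2 falls and 1 rise, with a median log2 fold change of -0.47. The repressors E2F4 to E2F8 counted 4 rises and 1 fall, with a median of 0.43. Of all genes tested, 26.6% rose and 29.9% fell, with a median of -0.01. Direction did not divide cleanly by class, since E2F3 lay with most repressors and E2F8 with E2F1 and E2F2. The call of the E2F3 rise was lost in 6 of 14 alternatives. No test was made over classes because the members were chosen by name.

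Levels between genes were compared per exon length, as RPKM. In shLuc the order of mean RPKM was TFDP1 at 65.8, E2F4 at 30.7, E2F6 at 9.86, E2F3 at 8.61, E2F7 at 6.58, TFDP2 at 5.76, E2F1 at 4.98, E2F5 at 4.63, E2F2 at 1.92 and E2F8 at 1.58. The library values of E2F7 and TFDP2 overlapped, as did those of E2F1 and E2F5, and the other neighbours were apart. In shWDR5 the order became TFDP1 at 66.9, E2F4 at 41.4, E2F6 at 12.2, E2F7 at 10.0, E2F3 at 9.78, E2F5 at 6.50, TFDP2 at 4.49, E2F1 at 3.59, E2F2 at 0.861 and E2F8 at 0.448. Here only E2F7 and E2F3 overlapped among neighbours. E2F4 was thus the most abundant E2F mRNA in both conditions, and E2F5 lay above E2F1 in shWDR5.

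The summed RPKM of all 8 E2F genes was 68.9 ± 1.06 in shLuc and 84.8 ± 1.07 in shWDR5 (SD, n = 3). E2F1, E2F2 and E2F3 together summed to 15.5 ± 0.542 and 14.2 ± 0.206 RPKM, and E2F4 to E2F8 together to 53.3 ± 1.6 and 70.6 ± 1.13 RPKM. The activators made up 21.4%, 22.6% and 23.7% of the E2F total in the shLuc libraries and 16.5%, 17.2% and 16.6% in the shWDR5 libraries. E2F1 and E2F2 alone held 9.86% to 10.1% in shLuc and 4.98% to 5.62% in shWDR5. The repressor sum was dominated by E2F4, and the activator sum by E2F3, the activator that did not fall. The ratio of activators to repressors was 0.272, 0.292 and 0.310 in shLuc and 0.198, 0.208 and 0.200 in shWDR5, with no overlap between the groups, and is given as a description.

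**Figure D3:**
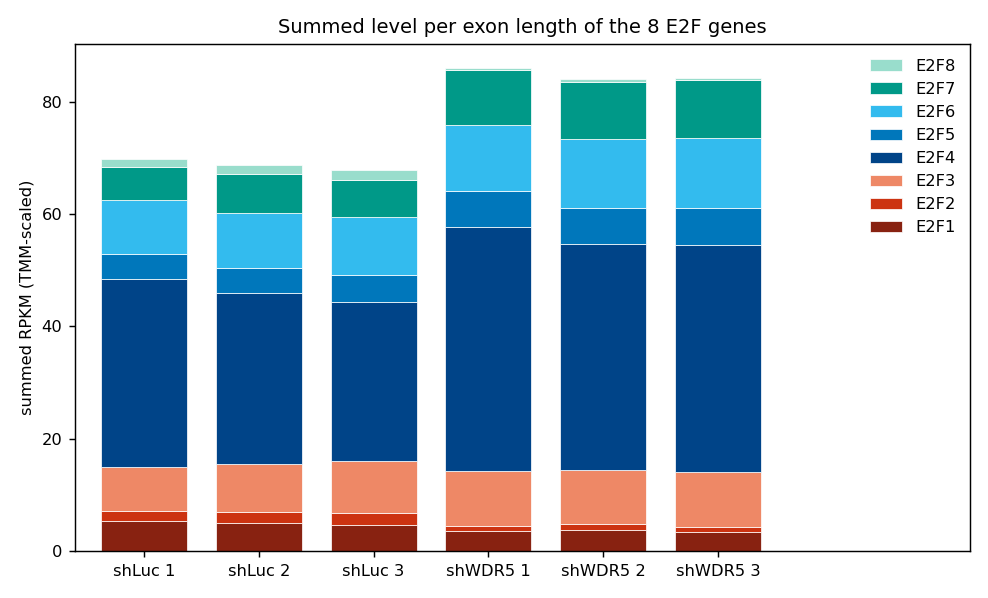
Summed RPKM of the 8 E2F genes in each library, stacked from E2F1 at the bottom to E2F8 at the top. The shWDR5 bars were taller, with more E2F4, E2F5, E2F6 and E2F7, and thinner bands of E2F1, E2F2 and E2F8.

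E2F activity depends on the pocket proteins that bind it and on the MuvB core of the DREAM complex. In a list of 10 genes that held these together with the MuvB-binding activators FOXM1 and MYBL2, 6 fell, none rose and 4 did not pass, with a median log2 fold change of -0.51. Of all genes tested, 29.9% fell and 26.6% rose. RB1, the retinoblastoma gene, measured 70.7, 95.2 and 86.2 CPM in shLuc and 66.7, 83.2 and 92.6 CPM in shWDR5, overlapping widely (log2 fold change -0.06 ± 0.15). RBL1, which encodes p107, fell from 26.3 ± 1.19 to 16.8 ± 0.523 CPM (log2 fold change -0.65 ± 0.07, edgeR adjusted p = 8.88e-06). RBL2, which encodes p130 and pairs with E2F4 in resting cells, fell from 70.2 ± 1.57 to 51.9 ± 1.01 CPM (-0.44 ± 0.05).

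The other falls of this list were those of LIN9, LIN52, FOXM1 and MYBL2. Without FOXM1 and MYBL2, 4 of the 8 pocket protein and MuvB genes fell, where 29.9% of all genes tested fell. FOXM1, which joins MuvB to activate mitotic genes, fell from 78.7 ± 4.66 to 43.5 ± 2.35 CPM (log2 fold change -0.86 ± 0.07, edgeR adjusted p = 8.00e-07). MYBL2, which encodes the MuvB partner B-MYB, fell from 102 ± 3.59 to 63.1 ± 4.82 CPM (-0.70 ± 0.07), and the MuvB subunit gene LIN52 from 8.48 ± 0.757 to 4.97 ± 0.282 CPM (-0.76 ± 0.10).

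The cyclins, kinases and inhibitors that act on pocket proteins in G1 showed no common direction. Of 13 listed genes 11 were tested, of which 3 rose, 4 fell and 4 did not pass, with a median of 0.01. Among all genes tested 26.6% rose and 29.9% fell, so these counts do not set the list apart. CDKN1A, which encodes the kinase inhibitor p21, rose from 447 ± 1.65 to 743 ± 39.0 CPM (log2 fold change 0.73 ± 0.05, edgeR adjusted p = 5.70e-07). CDK2, a kinase that p21 inhibits, fell from 54.7 ± 0.719 to 32.3 ± 0.961 CPM (-0.76 ± 0.06). CDKN2D fell by 0.52 on the log2 scale, and CDKN1C, a low gene at 0.813 CPM in shLuc, fell by 2.24.

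CCND2 rose by 0.25 (log2), and the kinase gene CDK6 by 0.49 ± 0.15, a call that was lost with no low-count filter and without shLuc replicate 3 or shWDR5 replicate 2 (adjusted p up to 0.0847 over the alternatives). CDKN2A and CDKN2B, neighbouring inhibitor genes that the MCF10A lineage is known to have lost, had 0 counts in all 6 libraries. A count of 0 allows a level of up to 0.0520 to 0.0785 CPM per library, by 3 counts and for counting error only.

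Genes that E2F proteins are known to drive at the G1/S transition were lower almost throughout. This list, like the others, was chosen with earlier results of these data known, and no test was made over it. Of 38 listed genes, all tested, 35 fell, 1 rose and 2 did not pass, where 29.9% of all genes tested fell. Their median log2 fold change was -0.72, and in the 3 shWDR5 libraries the median over the list lay 0.70, 0.64 and 0.77 below the control mean in log2 CPM, beside 0.01 in each for all genes tested. The largest falls were those of MCM5, a subunit of the replicative helicase, from 102 ± 3.65 to 43.3 ± 1.83 CPM (-1.24 ± 0.06, edgeR adjusted p = 2.97e-08), of the phosphatase gene CDC25A from 45.8 ± 3.75 to 20.0 ± 0.813 CPM (-1.20 ± 0.07), and of the replication factor gene GINS1 from 28.8 ± 2.81 to 12.8 ± 0.816 CPM (-1.17 ± 0.09).

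CCNE1, which encodes the G1/S cyclin E1 and is itself a textbook E2F target, was the exception that rose. It measured 7.67, 8.48 and 9.42 CPM in shLuc and 11.9, 12.4 and 11.3 CPM in shWDR5, without overlap (log2 fold change 0.48 ± 0.09, edgeR adjusted p = 0.000691). CCNE2 and the histone mRNA-binding gene SLBP were those that did not pass, at -0.31 and 0.00 on the log2 scale.

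All 24 listed genes of the later G2/M programme fell, with a median of -0.85, where 29.9% of all genes tested fell. CDC25C fell from 18.1 ± 0.536 to 8.30 ± 0.352 CPM (-1.12 ± 0.07), the kinetochore gene CENPF from 407 ± 8.46 to 189 ± 6.45 CPM (-1.10 ± 0.05) and the spindle checkpoint kinase gene TTK from 53.1 ± 6.15 to 25.8 ± 3.15 CPM (-1.04 ± 0.11).

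The other lists were small and mixed, and their counts are to be read beside all genes tested, of which 26.6% rose and 29.9% fell. Of 8 apoptosis genes that E2F1 is known to activate, 7 were tested, of which 3 rose, 1 fell and 3 did not pass. TP73, which encodes the p53 relative p73, rose from 1.01 ± 0.0430 to 2.21 ± 0.165 CPM (log2 fold change 1.12 ± 0.14, edgeR adjusted p = 3.24e-05), and BCL2L11, which encodes the death factor BIM, from 12.3 ± 1.64 to 23.0 ± 1.46 CPM (0.91 ± 0.10). BBC3 rose by 0.21, and its call was lost in 7 of 14 alternatives: with total-count scaling, with no low-count filter, with the DESeq2 Wald test, without shLuc replicate 1 or 3, and without shWDR5 replicate 2 or 3 (adjusted p up to 0.153 over the alternatives).

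Of 9 genes for the PRC1.6 partners of E2F6, MGA fell by 0.53 on the log2 scale, MAX rose by 0.18 and 7 did not pass. The MAX call was lost with total-count scaling, without shLuc replicate 2 and without shWDR5 replicate 2 or 3 (adjusted p up to 0.109 over the alternatives). Of 4 germline genes that E2F6 is known to silence, STAG3 and SMC1B were tested and neither passed, at 0.405 and 0.837 CPM in shLuc and 0.423 and 0.682 CPM in shWDR5. Of 8 genes for HCF-1 and MLL/SET1 subunits, 3 rose and 4 fell. In either direction, 56.5% of all genes tested were called. HCFC1 fell by 0.30, ASH2L by 0.59 and DPY30 by 0.50, while SETD1A, SETD1B and RBBP5 rose by 0.38, 0.40 and 0.30 (log2).

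**Figure D4:**
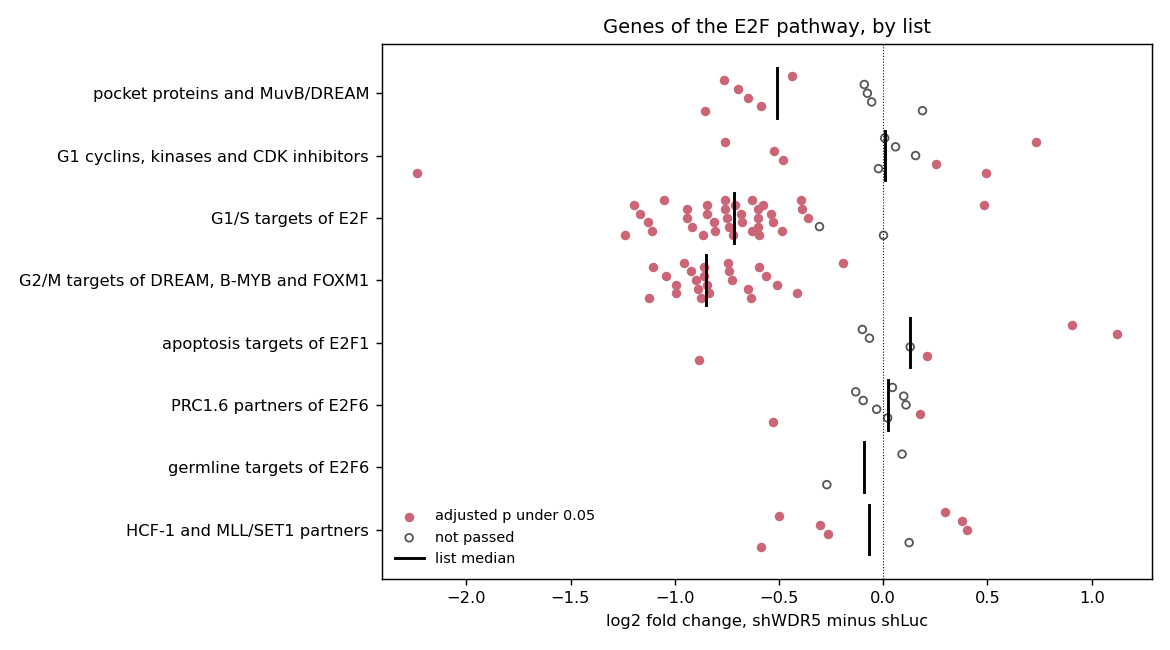
Log2 fold change (shWDR5 minus shLuc, x axis) of each tested gene in the 8 lists, as filled points where the adjusted p was under 0.05 and open points where it was not, with the list median as a black line. The G1/S and G2/M lists lay almost wholly to the left of 0, with medians of -0.72 and -0.85, and the other lists spread to both sides or close to 0 apart from the pocket protein and MuvB list.

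The E2F letters printed above were also looked up in all tested genes. Of the 598 tested genes with a match before a RefSeq start, 39.1% fell and 22.6% rose, against 31.2% and 27.1% of the 10783 tested genes without one. Leaving out the listed genes and the members, 37.3% of the remaining 576 genes with a match fell. In the G1/S list 12 of the 33 genes with a window held a match. Among the members with a match, E2F1 and E2F2 fell, TFDP1 did not pass and E2F3 rose slightly. The E2F3 call was lost in 6 of 14 alternatives. Its match lay before the upstream start only, while its count adds both starts. These values therefore do not show whether the letters go with 1 direction among the members. E2F5 and E2F8 had no window and could not be placed.

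Over the 6 libraries, the genes whose centred log2 CPM profile lay closest to that of E2F8 were TRIM9, ITGBL1 and TFPI, at Euclidean distances of 0.183, 0.200 and 0.203 log2 units. Their log2 fold changes were -1.75, -1.73 and -1.56, beside -1.80 for E2F8. The distance includes the difference between the groups, so similar fold changes follow from how the genes were picked. Shared regulation was not tested.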

How the data were processed

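Poly-A RNA libraries from 3 shLuc and 3 shWDR5 cultures were analysed. Per the labels, the authors aligned reads with TopHat2 2.1.0 to hg19 and made raw counts per gene with featureCounts; settings for strand and multi-mapped reads are not given in the sources used here. The deposited counts were used without change. A second deposited table holds the authors' own edgeR 3.2.2 fold changes and p-values and was not used. The 16117 genes kept by filterByExpr (edgeR 4.0.16) were TMM-scaled and tested by the robust quasi-likelihood test, shWDR5 against shLuc, with Benjamini-Hochberg adjustment. SE is the log2 fold change divided by the square root of F. CPM and RPKM use TMM-scaled totals and the deposited exon lengths. The fit was also run on simulated data (15950 genes tested) in which 200 genes had been changed. It recovered 83.7%, 68.8%, 72.0% and 90.0% of genes changed by -1, -0.5, 0.5 and 1 (log2). Since 9103 genes were called in the real data, the adjusted p cutoff differs and these rates do not carry over. Replicates differed by more than counting noise. Promoters come from RefSeq on GRCh38, and no coordinate was converted. Named genes are all members, WDR5, the pocket protein genes, and in each list up to 3 rises and 3 falls that passed without overlap, and the 3 genes closest in profile to the member with the lowest p. CCNE2, SLBP, STAG3, SMC1B, TFDP3, LIN9 and genes overlapping a member were added after their values were seen. A gene that the rule also names is not reported here. The members and lists were chosen with earlier results of these data known. Alternatives covered scaling, filters, DESeq2 1.42.0, the edgeR exact test, a replicate block, the study's call rule and each library left out.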

Additional observations from a re-analysis of the deposited data

How the results depend on the processing

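E2F1, E2F2, E2F4 to E2F8 and TFDP2 kept their direction and their call in all 14 alternative fits, and WDR5 stayed between -1.21 and -1.09 (log2). TFDP1, which never passed, turned to -0.034 with total-count scaling and ranged from -0.00017 to 0.042 with 1 library left out. The study's call rule gave 2761 genes in place of 9103. It called 1142 higher and 1619 lower, or 7.09% and 10.0% of all genes tested. Of the members 1 was higher and 2 lower, and of the G1 list 1 and 1. The G1/S list had 0 higher and 25 of 38 lower, and the G2/M list 0 higher and 19 of 24 lower. The pocket protein and MuvB list had 0 higher and 4 of 10 lower, and the apoptosis list 1 and 1. The PRC1.6 and HCF-1 lists had 0 in each direction. Members higher under that rule numbered 0 with total-count scaling and 0 to 1 with 1 library left out. The PRC1.6 list had 0 higher with total-count scaling, 2 with the replicate block and 0 to 1 with 1 library left out. The cause of these shifts was not tested. Replicate numbers are shared by the groups, and nothing in the labels says whether they pair libraries. Deviations of same-numbered libraries correlated at 0.56, 0.06 and 0.20 over genes, and those of other-numbered libraries at -0.49 to 0.36. These values do not settle whether the numbers pair libraries, and the main fit did not pair them. The replicate block raised the calls from 9103 to 10430, and apart from the PRC1.6 list its counts stayed within 1.5 times. With the block, E2F3 rose by 0.19 (log2, edgeR quasi-likelihood adjusted p = 0.00622). Depth limits E2F8 most among the members.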
